A study of Mus musculus with 6 samples.

Results

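Metalloproteases and their inhibitors were examined in hepatocytes that had received Sox4. The genes were chosen by symbol alone, as the matrix metalloproteinases (Mmp), the tissue inhibitors of metalloproteinases (Timp), the ADAM proteases (Adam) and the ADAMTS and ADAMTS-like proteins (Adamts, Adamtsl). Of 53599 gene symbols 84 matched, namely 23 Mmp, 4 Timp, 33 Adam, 19 Adamts and 5 Adamtsl genes. Low-count genes cannot be compared reliably, and 25 of the 84 had enough counts to be tested.

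Hepatocytes came from mice given an adeno-associated virus of serotype 8 (AAV8) and were collected 4 days later. The Sox4 group received AAV8-TBG-HA-Sox4-P2A-Cre, which carries HA-tagged mouse Sox4 and Cre. The empty vector (EV) group received AAV8-TBG-Cre, which carries Cre and no Sox4, so Cre was delivered in both. For another experiment the methods describe the empty vector as also holding a guide RNA backbone. The Sox4 vector was cloned into a different AAV plasmid, so the vectors may differ beyond Sox4. TBG is a promoter active in hepatocytes. The labels give the genotype WT for the EV mice and Sox4 for the others. By the study's methods the mice were male Rosa-LSL-Cas9-EGFP animals on a C57BL/6J background, injected at 4 to 8 weeks of age. The methods state a vector dose for the Sox4 mice of this experiment. That of the EV mice is not given in the sources used here, so a difference in dose between the groups cannot be told. Cells were freed with liberase and enriched on Percoll. Each group had 3 libraries, numbered as in the labels.

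Metalloproteases hold a zinc ion in their active site. MMPs cut collagens and other matrix proteins, either after secretion or, for the membrane-type enzymes, at the cell surface. ADAMs sit in the membrane and release the outer parts of receptors and ligands, such as Notch receptors and EGF-family ligands, while ADAMTS enzymes are secreted and cut proteoglycans, procollagens and von Willebrand factor. TIMPs bind the active site and block it. In the liver these proteins are known mainly from stellate cells, macrophages and bile duct remodelling, where the balance of protease and inhibitor governs scar turnover.

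The libraries held 15090629 to 16964860 counts. The delivered gene, Sox4, had 2, 0 and 3 counts in EV and 21697, 15097 and 11816 in Sox4, in keeping with the labels. Values are CPM, counts scaled to library sizes that were first adjusted by TMM, edgeR's trimmed-mean scaling, and are given as mean ± SD (n = 3). Adjusted p-values come from the edgeR quasi-likelihood test, were adjusted over 12691 genes and were called at 0.05. With library size alone in place of TMM the median log2 change over all tested genes moved from 0.04 to 0.51, so smaller changes depend on the scaling for their direction. The labels give replicate numbers only, and the study describes the replicates of its RNA-seq as animals. The strand setting of the counting is not given, so reads of genes that overlap on opposite strands cannot be told apart.

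Of the 25 tested genes 19 were higher in Sox4, 1 was lower and 5 did not pass. Over all genes tested 29.0% were higher and 26.0% lower, 55.1% in all. The libraries of the groups did not overlap for the same counts, 19 higher and 1 lower, against 33.1% and 29.9% of all genes tested. These counts need care, since 11 of the 25 had under 10 counts in every EV library and were tested because of their counts in Sox4. All 11 were higher, as were 90.2% of all 745 tested genes with EV counts that low, so nothing about the family can be read from them. Of the other 14 genes 8 were higher, 1 was lower and 5 did not pass, beside 25.2% higher and 27.7% lower among the 11946 genes with at least 10 counts in an EV library. The median log2 change of these 14 was 1.35, beside -0.02 for those 11946 genes. Over all 25 it was 2.81, also with genes at their lower bound, beside 0.04 for all genes tested, but this includes the 11 set aside here.

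**Figure D1:**
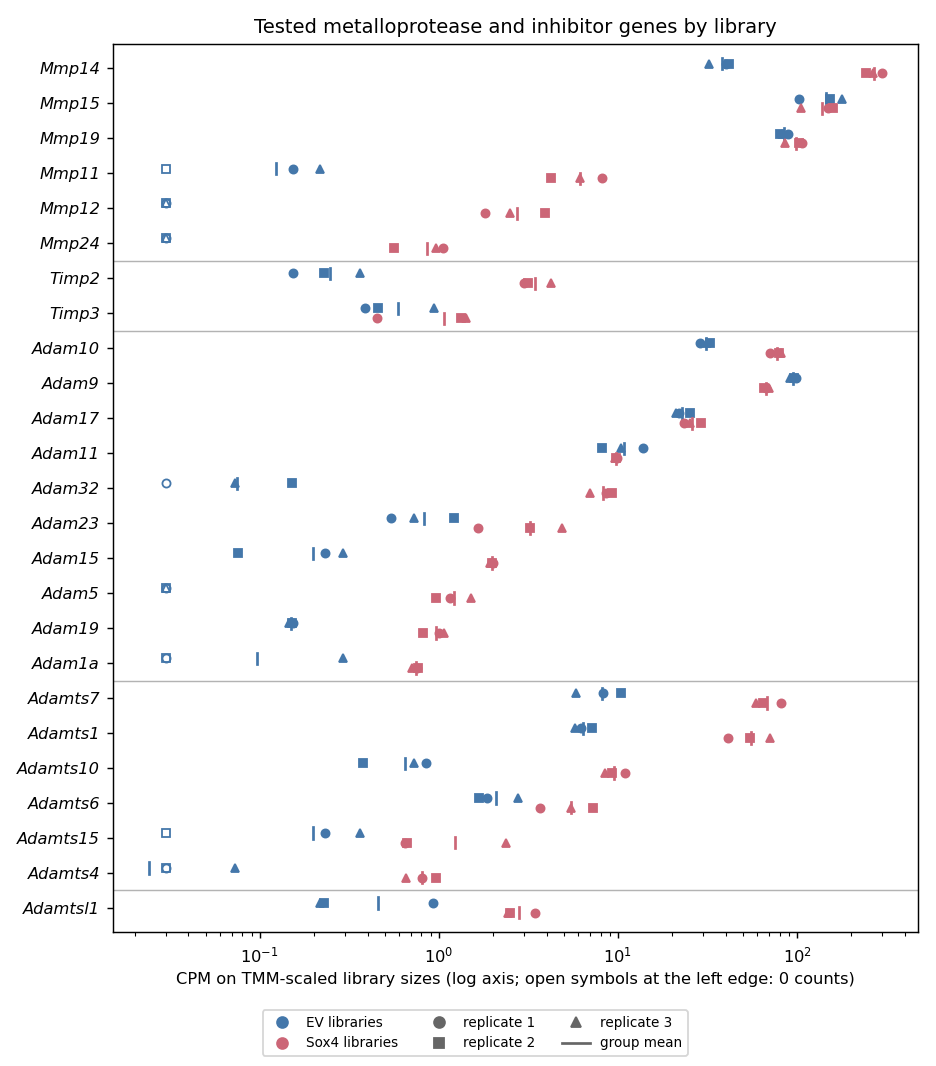
Level of each of the 25 tested genes in every library, as CPM on a log axis, with EV in blue, Sox4 in red and a bar at each group mean. For 19 genes every Sox4 library lies to the right of every EV library, and for Adam9 every Sox4 library lies to the left.

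Membrane-type MMPs were represented by 3 tested genes of 6. Mmp14 encodes MT1-MMP, a surface collagenase that also activates pro-MMP2 with the help of TIMP2. It was at 40.1, 41.8 and 32.4 CPM in EV and at 298, 242 and 265 CPM in Sox4. Every Sox4 library was far above every EV library, and the mean rose from 38.1 ± 5.01 to 268 ± 27.9 CPM (log2 change 2.82 with SE 0.14, adjusted p = 8.16e-07). Mmp24, encoding MT5-MMP, an enzyme known mainly from neural tissue, had no count in any EV library and 21, 11 and 19 counts in Sox4. That is at least 11.5-fold higher (adjusted p = 0.00149), where the bound sets the Sox4 level against 3 counts over the EV group in place of the 0 found. The exact 95% counting interval of this ratio began at 8.98. Mmp15, encoding MT2-MMP, was at 103, 153 and 178 CPM in EV and 149, 159.6 and 105 CPM in Sox4. The groups overlapped, and the difference was within the spread between libraries (-0.07 with SE 0.30, adjusted p = 0.804, and 0.40 with library size alone). Exons of a gene on the opposite strand cover 13.6% of the Mmp24 exon bases. Mmp17 reached 9 counts in Sox4 3, and Mmp16 and Mmp25 had none anywhere. Intervals and bounds from counts cover counting error only, since reads copied by PCR are not independent molecules.

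Levels of different genes can be set beside each other only per length. Per kilobase of annotated exon, Mmp14 held rank 4 among the 25 genes in EV, at 6.39 ± 0.841 CPM per kb, and rank 1 in Sox4, at 45.03 ± 4.69. The highest in EV were Mmp15 at 26.9 ± 7.10, Mmp19 at 23.9 ± 1.27 and Adam9 at 23.2 ± 0.880 CPM per kb, which lay within their spread of each other. In Sox4, Mmp19 at 27.9 ± 3.11 and Mmp15 at 25.6 ± 5.33 CPM per kb again did not differ beyond their spread, nor did Adam9 at 16.4 ± 0.450 and Adam10 at 15.7 ± 1.19, or Adamts7 at 10.8 ± 1.88 and Adamts1 at 10.5 ± 2.79. The abundant members were largely the same in both groups, with Mmp14, Adamts7 and Adamts1 at higher ranks in Sox4.

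Secreted MMPs were mostly silent in both groups. Mmp19, which was abundant, was at 89.4, 80.8 and 82.8 CPM in EV and 107, 103 and 86.1 CPM in Sox4. It overlapped between groups and did not pass (0.23 with SE 0.11, adjusted p = 0.127), although it passed as higher without Sox4 replicate 3 (0.32) and with library size alone (0.70). In GENCODE M21 28.3% of its exon bases lie under exons of genes on the opposite strand. Mmp11, stromelysin-3, which is activated inside the cell by furin, had 2, 0 and 3 counts in EV and 162, 83 and 121 in Sox4. The ratio of its summed levels was 49.3 (exact 95% counting interval 20.9 to 153, adjusted p = 3.21e-05), and its fitted log2 value of 5.54 was 6.18 without EV replicate 3.

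Mmp12, the macrophage elastase, had no count in any EV library and 36, 77 and 49 counts in Sox4. This was at least 36.4-fold higher against the same floor (exact 95% counting interval from 29.2, adjusted p = 2.10e-04). In bulk RNA more cells of a type and more RNA per cell cannot be told apart. Markers of Kupffer cells, the resident liver macrophages, were present in every library, with summed levels between 13.4 and 28.8 CPM in EV and between 29.1 and 67.9 CPM in Sox4. Of their 9 tested markers 4 were higher, beside 29.0% of all genes tested. Marco, among the 4, had 4, 15 and 14 counts in EV and was tested with the help of its Sox4 counts. The part of macrophages in the Mmp12 result was not tested.

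The collagenases were hardly detected. Mmp8 and Mmp13 had 2 counts in Sox4 2 only, and Mmp1a and Mmp1b none. The gelatinase Mmp2, which MT1-MMP activates, had 0, 0 and 5 counts in EV and 2, 2 and 15 in Sox4, and Mmp9 had at most 6, so neither was tested. Mmp7, matrilysin, was counted in Sox4 3 alone, with 6 counts. Mmp3, Mmp10 and Mmp20 had none, and Mmp21, Mmp23, Mmp27 and Mmp28 had at most 7. At this depth changes in these genes were not detectable.

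Among the inhibitors Timp2 rose. It had 2, 3 and 5 counts in EV and 60, 62 and 83 in Sox4, so the groups were well apart, and its level went from 0.248 ± 0.106 to 3.46 ± 0.651 CPM (log2 change 3.75 with SE 0.28, adjusted p = 6.97e-05). Timp2 is both an inhibitor of MT1-MMP and the adaptor through which that enzyme activates pro-MMP2. Timp3, a matrix-bound inhibitor that also blocks ADAM17, had 5, 6 and 13 counts in EV and 9, 26 and 28 in Sox4, with Sox4 1 inside the EV range. It did not pass (0.82 with SE 0.57, adjusted p = 0.244). In GENCODE M21 21.3% of its exon bases lie under Syn3, on the opposite strand. Timp1, which is known to rise in liver injury, had no count in EV and 1 count in each Sox4 library, and Timp4 had 1 count in Sox4 3. Per kilobase Timp2 reached 0.888 ± 0.167 CPM in Sox4, the highest of the TIMPs.

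**Figure D2:**
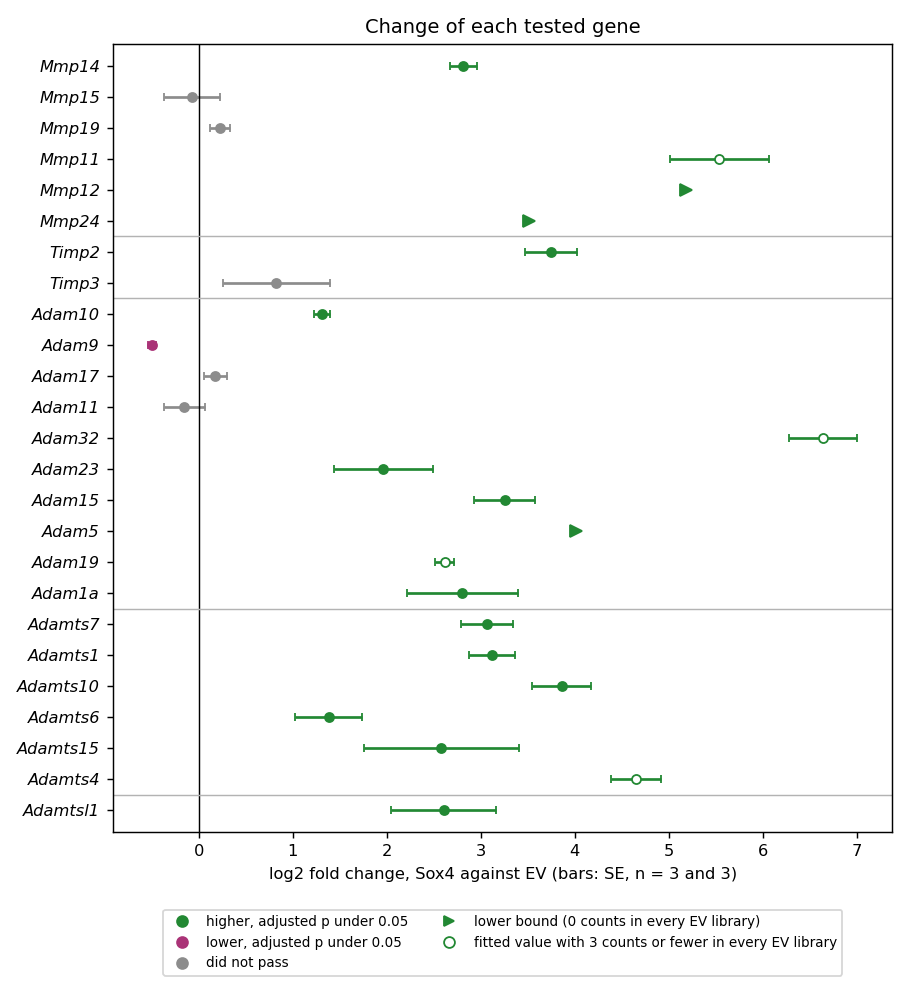
Log2 fold change of each tested gene in Sox4 against EV, with SE bars (3 libraries a group). Green marks genes higher past the threshold, purple the only lower one, Adam9 at -0.50, and gray those that did not pass, while triangles mark lower bounds for genes with no EV count.

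The ADAM sheddases, the active proteases of the family, differed among themselves. Adam10, which makes the first cut in ligand-bound Notch receptors, was at 28.6, 32.7 and 31.6 CPM in EV and at 70.4, 79.3 and 81.4 CPM in Sox4. All Sox4 libraries were higher, and the mean rose from 31.0 ± 2.14 to 77.0 ± 5.85 CPM (log2 change 1.31 with SE 0.09, adjusted p = 1.20e-05). Adam17, the TNF-converting enzyme, was at 22.0, 25.4 and 21.2 CPM in EV and 23.4, 29.0 and 25.2 CPM in Sox4. It overlapped between groups and did not pass (0.18 with SE 0.12, adjusted p = 0.290), although with library size alone it was higher (0.65, adjusted p = 0.00208). The difference between Adam10 and Adam17 was not itself tested.

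Adam9, a widely expressed sheddase, was the only gene of the 25 that was lower. It was at 98.3, 96.3 and 91.3 CPM in EV and 67.3, 65.7 and 69.4 CPM in Sox4, a log2 fold change of -0.50 (with SE 0.04, adjusted p = 0.00199) from 95.3 ± 3.62 to 67.5 ± 1.85 CPM. This depends on the scaling. Its raw counts were 1276, 1268 and 1257 in EV and 1343, 1287 and 1370 in Sox4, and with library size alone the value was -0.03 (adjusted p = 0.818).

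Adam15 and Adam19 encode further active ADAMs. Adam15 had 3, 1 and 4 counts in EV and 40, 39 and 38 in Sox4 (3.25 with SE 0.32, adjusted p = 3.64e-04). Adam19, which can cut neuregulin, had 2 counts in each EV library and 20, 16 and 21 in Sox4, a ratio of 6.40 (95% counting interval 2.77 to 18.2, adjusted p = 0.00207). Both had non-overlapping groups, and genes on the opposite strand cover 20.6% of the Adam15 exon bases and 10.1% of those of Adam19. Adam8, a leukocyte ADAM, was below the filter at 0, 3 and 1 counts in EV and 22, 15 and 10 in Sox4. With no filter it passed as higher (adjusted p = 0.00338). Adam12 and Adam33 had at most 2 counts and Adam28 none.

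Adam23 and Adam11 encode surface proteins that lack the catalytic site and act in adhesion, chiefly in neurons. Adam23 had 7, 16 and 10 counts in EV and 33, 63 and 96 in Sox4, and rose from 0.827 ± 0.349 to 3.25 ± 1.61 CPM (1.96 with SE 0.53, adjusted p = 0.00682). Sox4 1 was the lowest of its group and still above EV. Adam11 was at 13.8, 8.12 and 10.5 CPM in EV and 9.82, 9.71 and 9.63 CPM in Sox4, with overlapping groups, and did not pass (-0.15 with SE 0.22, adjusted p = 0.546, and 0.32 with library size alone). Adam22, of the same kind, reached 3 counts.

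The remaining 21 Adam genes are best known from testis and sperm, and 12 of them had no count in any library. Adam32 was the exception with the most counts. It had 0, 2 and 1 counts in EV and 171, 181 and 137 in Sox4, a ratio of 109.8 (95% counting interval 37.3 to 534, adjusted p = 4.41e-06), with a fitted log2 value of 6.64 that was 7.52 without EV replicate 2. Adam5 had none in EV and 23, 19 and 30 counts in Sox4, at least 16.2-fold higher against the same floor (exact 95% counting interval from 12.8, adjusted p = 5.77e-04). Neither has exon bases shared with another gene in GENCODE M21.

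Adam32 and Adam5 are neighbours. In the RefSeq gene order of the GRCm38 assembly the coding genes run Adam18, Adam3, Adam5, Adam32, Adam9 and Tm2d2 on chromosome 8. Adam18 and Adam3 had no count in any of the 6 libraries. Adam9 on the other side was among the most abundant members and fell, as given above, and Tm2d2 was lower by 0.33 on the log2 scale (adjusted p = 0.0265), less than the shift between scalings. The rise was seen in the middle pair of this run. The Mmp12 run on chromosome 9 had a like form, since Mmp13 beside it had 2 counts in all and Mmp1b, Mmp3, Mmp1a and Mmp10 had none, while the next gene on the near side, Dcun1d5, was at 0.04 (adjusted p = 0.813).

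**Figure D3:**
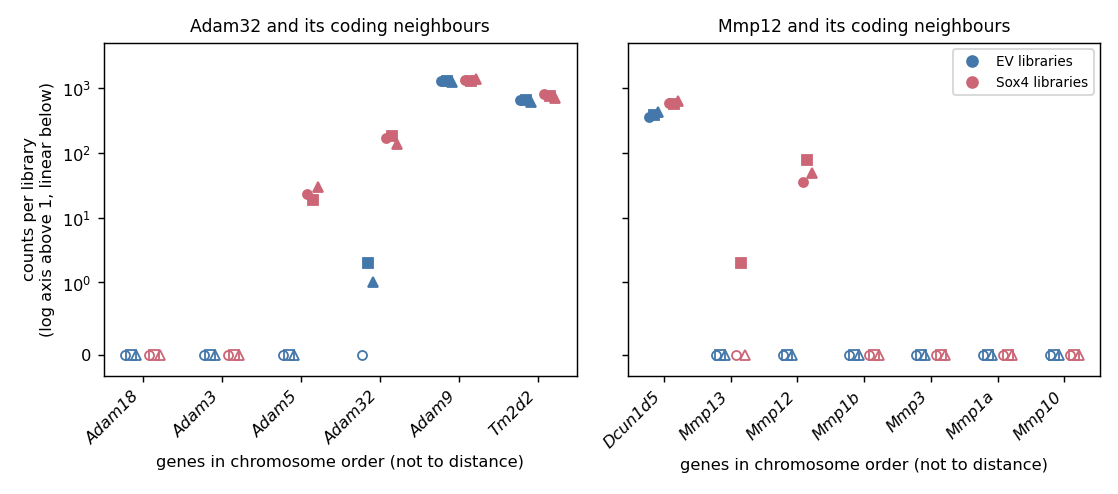
Counts per library for Adam32 and Mmp12 and the coding genes beside them in RefSeq order, with EV in blue, Sox4 in red and open symbols for 0 counts. Adam32, Adam5 and Mmp12 carry counts in all 3 Sox4 libraries, next to family members that stay at 0 to 2 counts. Adam9, Tm2d2 and Dcun1d5 have many counts in both groups, shown here before scaling.

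Adam1a had 0, 0 and 4 counts in EV and 15, 15 and 14 in Sox4 (2.81 with SE 0.59, adjusted p = 0.0188). The call was lost when EV replicate 1 (2.26), EV replicate 2 (2.25) or Sox4 replicate 2 (2.78) was left out, the value was at 6.67 without EV replicate 3, and 63.7% of its exon bases are shared with other genes, Mapkapk5 among them. Of the other members of this kind Adam4 reached 13 counts, at 3, 1 and 2 in EV and 7, 13 and 5 in Sox4, and was below the filter.

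All 6 tested ADAMTS proteases were higher, beside 29.0% of all genes tested. Adamts4 and Adamts15 were tested only through their Sox4 counts and add nothing to this count. Nor does Adamts10, which had 5 counts in EV 2 and was tested with the help of its Sox4 counts. Adamts1, which cuts versican and aggrecan, was at 6.24, 7.14 and 5.74 CPM in EV and at 41.0, 54.9 and 70.5 CPM in Sox4. It rose from 6.37 ± 0.709 to 55.5 ± 14.8 CPM (3.12 with SE 0.24, adjusted p = 3.63e-06), with a wide range among the Sox4 libraries and none near EV. Adamts4, another of these proteoglycan-cutting enzymes, had 1 count in EV 3 only and 16, 19 and 13 in Sox4, a ratio of 32.3 (95% counting interval 5.53 to 1303, adjusted p = 0.00129, and a fitted log2 value that went from 4.65 to 6.80 without EV replicate 3). Adamts15, of the same group, had 3, 0 and 5 counts in EV and 13, 13 and 47 in Sox4 (2.58 with SE 0.83, adjusted p = 0.0278). Sox4 3 held most of its counts, and the call was lost when Sox4 replicate 3 (1.68, adjusted p = 0.119), EV replicate 1 (2.68) or EV replicate 2 (2.01) was left out. The value was 3.33 without EV replicate 3.

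Adamts7 is known for cutting cartilage oligomeric matrix protein. It was at 8.24, 10.4 and 5.81 CPM in EV and at 81.4, 64.2 and 58.8 CPM in Sox4, and rose from 8.15 ± 2.30 to 68.1 ± 11.8 CPM (3.06 with SE 0.28, adjusted p = 5.37e-06). Adamts10 and Adamts6 are close relatives that act on fibrillin microfibrils. Adamts10 had 11, 5 and 10 counts in EV and 218, 182 and 167 in Sox4 (3.86 with SE 0.31, adjusted p = 7.64e-06). Adamts6 had 24, 22 and 38 counts in EV and 73, 143 and 108 in Sox4, and rose from 2.09 ± 0.584 to 5.48 ± 1.82 CPM (1.38 with SE 0.35, adjusted p = 0.00569). All 3 had non-overlapping groups, and Adamts6 had the smaller change.

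Adamtsl1, which encodes punctin, a secreted protein with ADAMTS repeats and no protease domain, had 12, 3 and 3 counts in EV and 69, 49 and 48 in Sox4. EV 1 was the highest of its group and still below Sox4 (2.61 with SE 0.56, adjusted p = 0.00216, and 3.59 without EV replicate 1). The procollagen N-proteinases were below the filter. Of these Adamts14 had 0, 1 and 2 counts in EV and 8, 8 and 60 in Sox4, most of them from Sox4 3, and Adamts2 had 2, 1 and 4 against 2, 14 and 9. With no filter Adamts14 passed as higher (adjusted p = 7.05e-06), as did Adamtsl2, with 0, 0 and 2 counts in EV and 8, 15 and 13 in Sox4 (adjusted p = 0.00401).

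Adamts13, the von Willebrand factor protease that the liver makes in stellate cells, had 3, 3 and 10 counts in EV and 0, 2 and 6 in Sox4. It was below the filter, and with none it did not pass (-1.47, adjusted p = 0.289). Adamts5 had 1, 1 and 3 counts in EV and 16, 9 and 1 in Sox4, Adamts9 2, 3 and 1 against 3, 9 and 13, and Adamtsl4 1, 1 and 10 against 5, 4 and 8. In all, 59 of the 84 genes were below the filter, of which 25 had no count in any library, 14 reached 1 to 3 in a library, 10 reached 4 to 9 and the 10 named here and above reached at least 10. The highest count of an untested gene was 60 among Adamts, 22 among Adam, 15 among both Mmp and Adamtsl and 1 among Timp genes.

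Promoter sequence was looked at for genes that rose together, since Sox4 binds DNA. RefSeq promoters on GRCm38.p6 matched 14 of the 25 tested genes, in 17 annotated starts, and the 250 bases before each start were searched on both strands for ACAAAG, a core of SOX sites, TGANTCA, the AP-1 site, and GGAATG, the TEAD site. The ends of these motifs can share letters, which no match here did, and a match is a description of the sequence, not a binding site. The higher genes among them were 11, with 14 starts. ACAAAG was found in 2 of these starts, beside 16.5% of all 32851 promoters, TGANTCA in 2, beside 6.75%, and GGAATG in 1, beside 12.6%. Of these genes Adam15, Adam19, Adam1a, Mmp11, Mmp12, Mmp24 and Timp2 were tested only through their Sox4 counts. TGANTCA was found in Adam19 and Mmp12 alone, so nothing about the family can be read from these shares. The 4 windows below are those of Mmp14, the gene with the lowest adjusted p, which holds none of the letters searched, and of Adamts1 and Mmp12, the higher genes with ACAAAG. Mmp12 has a pair of annotated starts. Capitals mark ACAAAG, which begins 217 bases before the start in Adamts1 and 147 before the first start in Mmp12, and TGAGTCA, which begins 44 bases before the second start in Mmp12. Each is 5′ to 3′ on the strand of the gene.
Mmp14, chr14:54431348-54431597, plus strand: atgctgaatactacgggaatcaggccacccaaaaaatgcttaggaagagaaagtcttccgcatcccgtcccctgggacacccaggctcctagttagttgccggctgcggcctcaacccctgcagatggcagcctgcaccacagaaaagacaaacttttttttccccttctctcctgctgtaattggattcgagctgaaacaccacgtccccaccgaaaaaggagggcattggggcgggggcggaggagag
Adamts1, chr16:85803114-85803363, minus strand: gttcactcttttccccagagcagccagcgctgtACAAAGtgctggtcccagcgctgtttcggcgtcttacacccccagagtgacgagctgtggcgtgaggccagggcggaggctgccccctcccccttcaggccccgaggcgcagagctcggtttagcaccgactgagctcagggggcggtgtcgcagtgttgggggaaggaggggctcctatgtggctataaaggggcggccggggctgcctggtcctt
Mmp12, first start, chr9:7344147-7344396, plus strand: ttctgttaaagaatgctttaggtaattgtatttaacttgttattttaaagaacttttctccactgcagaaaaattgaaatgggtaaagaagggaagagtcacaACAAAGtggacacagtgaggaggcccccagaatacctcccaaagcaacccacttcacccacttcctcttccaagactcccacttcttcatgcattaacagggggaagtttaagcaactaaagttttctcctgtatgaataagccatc
Mmp12, second start, chr9:7347124-7347373, plus strand: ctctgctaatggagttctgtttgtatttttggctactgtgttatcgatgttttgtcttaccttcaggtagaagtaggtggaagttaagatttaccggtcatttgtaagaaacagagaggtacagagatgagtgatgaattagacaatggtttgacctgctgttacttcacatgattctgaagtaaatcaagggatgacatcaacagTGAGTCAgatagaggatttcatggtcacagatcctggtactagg

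The base composition of these windows differed. G and C made up 55.2% of the Mmp14 window and 65.6% of the Adamts1 window, but 40.0% and 39.6% of those of Mmp12. No match says only that these letters are not in the window.

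Genes that control metalloproteases were followed as a list of 22 inhibitors, clearance receptors and activators, of which 16 were tested, 6 higher and 8 lower (median log2 change -0.34). Over all genes tested 29.0% were higher and 26.0% lower, with a median of 0.04. The higher genes St14, Thbs1, Plat and Plaur were tested only through their Sox4 counts, with under 10 in every EV library. They add nothing to the count of higher genes. Furin and Pcsk6 are convertases, the enzymes that remove the propeptide of membrane-type MMPs, MMP11 and ADAMs, and both were lower. Furin was at 334 ± 19.4 CPM in EV and fell to 140.3 ± 9.41 (-1.25 with SE 0.07, adjusted p = 2.37e-05) and Pcsk6 from 129.8 ± 10.8 to 65.7 ± 2.18 CPM (-0.98 with SE 0.08, adjusted p = 5.57e-05). Klkb1, plasma prekallikrein, was lower by 1.12 on the log2 scale (adjusted p = 8.27e-05). St14, the membrane serine protease matriptase, rose from 0.223 ± 0.121 to 18.8 ± 0.784 CPM (6.34 with SE 0.28, adjusted p = 3.23e-07). Thbs1, a thrombospondin that binds several metalloproteases, had 3 counts over the EV group and 3.06 ± 0.834 CPM in Sox4 (adjusted p = 2.58e-04). The membrane inhibitor Reck was at 0.28 (SE 0.67, adjusted p = 0.692).

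Partners of ADAM10 and ADAM17 were a list of 9 genes, of which 8 were tested, 4 higher and 1 lower (median 0.77), beside the same background. Tspan5, among the higher, was tested only through its Sox4 counts. The TspanC8 tetraspanins carry ADAM10 to the surface. Of these Tspan17 rose from 0.876 ± 0.300 to 6.31 ± 1.18 CPM (2.84 with SE 0.32, adjusted p = 7.34e-05), Tspan5 was higher by 2.90 (adjusted p = 0.00209) and Tspan15 by 2.31 (adjusted p = 0.0278, with 84 of its counts in Sox4 3 and 24 and 18 in the others), whereas Tspan33 fell by 0.76 (adjusted p = 0.0119). Rhbdf1, the iRhom1 protein that escorts ADAM17, rose from 6.52 ± 0.193 to 14.6 ± 1.30 CPM (1.17 with SE 0.08, adjusted p = 1.69e-04). Tspan14 was at 0.37 (adjusted p = 0.0577).

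Of 26 ligands and receptors known to be shed 21 were tested, with 6 higher, 6 lower and a median of 0.17. These are 28.6% each way, near the 29.0% and 26.0% of all genes tested. Notch3 and Areg, among the higher, were tested only through their Sox4 counts, with under 10 in every EV library. The Notch ligand Jag1 rose from 2.02 ± 0.575 to 13.6 ± 3.23 CPM (2.74 with SE 0.31, adjusted p = 2.75e-05), and Notch2 from 54.9 ± 6.87 to 110.1 ± 2.65 CPM (1.01 with SE 0.11, adjusted p = 8.34e-05). Notch3 had 1 count over the EV group and 0.960 ± 0.357 CPM in Sox4 (adjusted p = 0.00131). Cdh1, E-cadherin, fell by 0.82 (adjusted p = 4.22e-04) and Il6ra, the interleukin-6 receptor, by 1.36 (adjusted p = 0.00104) on the log2 scale. These lists and a pair of smaller ones held 89 genes of the table, of which 57 were tested. By TMM 19 were higher and 18 lower, and by library size alone 31 and 8. The 19 include the genes of these lists that were tested only through their Sox4 counts.

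Markers of other cell types were followed because Percoll enrichment leaves some of these cells and several metalloproteases are made by them. Hepatocyte markers dominated every library, with sums between 118681 and 141595 CPM in EV and between 84292 and 98064 CPM in Sox4. Among all genes tested 29.0% were higher and 26.0% lower, which stands beside each count of markers here. Kupffer markers are given above, with 4 of 9 tested genes higher. Stellate markers lay between 8.94 and 46.7 CPM in EV and between 86.5 and 143 CPM in Sox4, with 3 of 5 tested genes higher. Most of this was Reln, and without it, a choice made after its values were seen, the sums were 1.85 to 9.15 and 8.42 to 35.6 CPM, with Sox4 1 inside the EV range. Of the 3 higher stellate genes, Rgs5 had 3, 8 and 22 counts in EV and Col3a1 had 1, 19 and 20. Both were tested with the help of their Sox4 counts and add nothing to the count.

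Endothelial markers had 2 of 9 genes higher and 2 lower, beside the same 29.0% and 26.0%. Their sums lay between 169 and 238 CPM in EV and between 61.5 and 87.4 CPM in Sox4. These were mostly Dpp4, and without it, again chosen after seeing the data, they were 19.3 to 31.2 and 15.8 to 37.5 CPM. Cholangiocyte markers lay between 17.6 and 22.0 CPM in EV and between 27.3 and 29.97 CPM in Sox4, with Epcam higher among 2 tested genes, and Krt7 and Krt19 without a count in EV. Epcam had 1, 0 and 5 counts in EV and was tested only through its Sox4 counts. Neutrophil markers reached at most 1.33 CPM in any library, with Ly6g and Camp at 0, and lymphocyte markers at most 3.88 CPM, with Ptprc at 0.96 the only one tested. Within the Sox4 group Kupffer markers and stellate markers without Reln were lowest in Sox4 1. Of the 25 tested genes, Mmp12, Timp2, Timp3, Adam10, Adam17, Adam23, Adamts1, Adamts6 and Adamts15 were lowest in that library within the Sox4 group. Mmp11, Mmp14, Mmp19, Mmp24, Adam11, Adam15, Adamts7, Adamts10 and Adamtsl1 were highest there, and the others lay between. The part of these cells in the results was not tested.

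**Figure D4:**
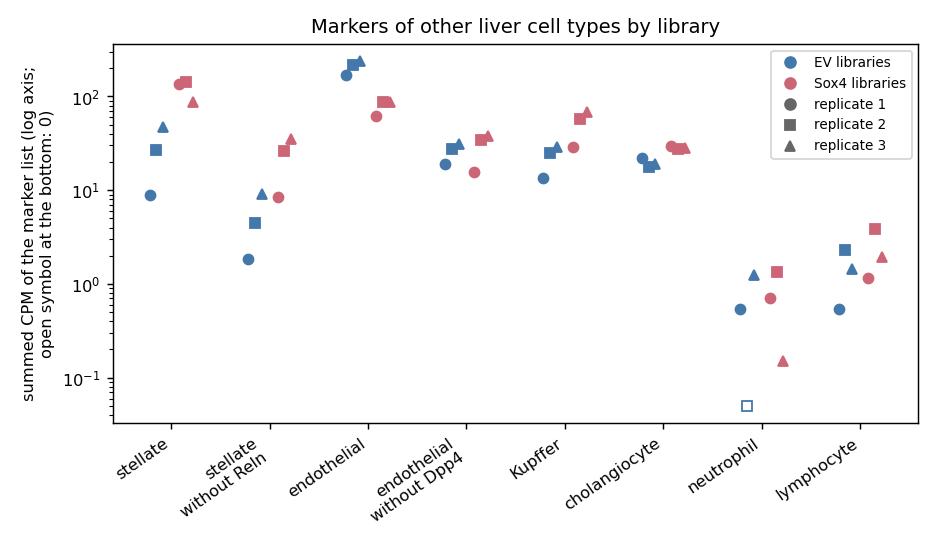
Summed CPM of marker lists for other liver cell types in every library, on a log axis, with EV in blue, Sox4 in red and a symbol for each replicate number. Kupffer sums lie between 13.4 and 28.8 CPM in EV and between 29.1 and 67.9 CPM in Sox4, while neutrophil sums stay at 1.33 CPM or below.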

How the data were processed

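Hepatocyte RNA-seq was compared between 3 EV and 3 Sox4 libraries. The authors aligned reads to GRCm39 with STAR 2.7.10b and counted them with featureCounts 2.0.1. The table they deposited holds raw counts per gene. Annotation release, strand setting and treatment of reads with several matches are not given in the sources used here, so overlapping genes are uncertain. A deposited table of the same counts divided by DESeq2 size factors was not used.

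The tests ran in edgeR 4.0.16 under R 4.3.3. Genes were kept by filterByExpr (minimum count 10, minimum total 15), libraries were scaled by TMM, and the groups were compared by the quasi-likelihood F test with robust dispersion, with Benjamini-Hochberg adjustment over all genes tested and a threshold of 0.05. Standard errors refer to the log2 CPM difference of the groups (prior count 2). Genes with 3 counts or fewer in every EV library are given as a ratio of group sums with an exact 95% conditional binomial interval, or, with no EV count, as a bound against 3 counts over the group. The fit was also run on simulated data with far fewer changed genes than were called here, so that run cannot vouch for these calls. Alternatives used DESeq2 1.42.0, limma-voom (limma 3.58.1), other scalings and filters, a replicate block, and each library left out. Replicate libraries were farther apart than sampling noise allows (chi-square per degree of freedom of 19.3 to 69.8).

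Every gene of the family was accounted for. The rule for named genes took values in every library for all Timp genes and all genes past the threshold, the fold of tested genes that did not pass, untested genes with 10 counts or more in a library, and at most 6 genes past the threshold from each other list. A few genes of the other lists are not reported here. Any other gene, and library values of genes that did not pass, were added after the values were seen. Genes and lists were chosen with earlier results of these data known. Exon lengths and overlaps come from GENCODE M21 and gene order from RefSeq, both on GRCm38 and not on the build of the counts, and all promoter coordinates are GRCm38.p6.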

Additional observations from a re-analysis of the deposited data

How the results depend on the processing

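Counts of higher genes of the family were 19 with DESeq2 size factors, the DESeq2 test and limma-voom as by edgeR, 21 with library size alone, 22 with no filter and between 18 and 21 with one of the 6 libraries left out. With a mean count of at least 50 there were 8, since only 13 of the genes were then tested. The count of lower genes was 1 under every alternative but library size alone, where it was 0 by edgeR (0 at an unadjusted p under 0.05 as well, and 1 by the DESeq2 test with its own size factors). With library size alone 79.9% of all changed genes were higher against 52.7% with TMM. Over the other lists 31 genes were then higher and 8 lower. The stricter filter on the mean count left 11 higher. With one library left out there were between 14 and 19 higher and between 16 and 18 lower.

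Among the values of single genes recomputed under an alternative 298 stayed on their side, 7 lost their call, 3 gained one and 5 changed sign. The last were of Adam11 and Mmp15, neither past the threshold. Adam11 was at 0.32 and Mmp15 at 0.40 with library size alone, by the shift of all genes, and leaving out a library moved Adam11 from -0.33 to 0.048 and Mmp15 from -0.28 to 0.094. The cause was not tested.

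With the replicate block 19 genes of the family were higher and 1 lower, and of the other lists 23 and 20. Deviations of same-numbered libraries correlated at 0.27, -0.09 and 0.13, and 3 of the 6 libraries correlated best with their own number, so the numbers were not taken as pairs. A count of 3 was worth 0.218 to 0.231 CPM in EV libraries and 0.150 to 0.153 CPM in those of Sox4, which limits the 59 untested genes.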

Other observations

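Other zinc metalloproteases outside the families above were listed as 20 genes, of which 19 were in the table and 8 were tested, 1 higher and 3 lower (median log2 change -0.27), or 12.5% and 37.5% beside 29.0% and 26.0% of all genes tested. Cpm, the membrane carboxypeptidase M, rose from 4.85 ± 0.667 to 36.2 ± 5.98 CPM (2.90 with SE 0.18, adjusted p = 1.97e-06). Ece1, endothelin-converting enzyme, fell by 0.81 (adjusted p = 9.17e-04), Mme, neprilysin, by 1.17 (adjusted p = 0.00105) and Enpep, aminopeptidase A, by 0.68 (adjusted p = 0.00293) on the log2 scale. Bmp1, the main procollagen C-proteinase, was at 157.9 ± 25.1 and 199.3 ± 30.8 CPM (0.34, adjusted p = 0.0993). With library size alone more genes move upwards, as given above.

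Matrix substrates of ADAMTS enzymes were mostly below the filter. Of 13 genes 4 were tested and 2 were higher, beside 29.0% of all genes tested. These were Col1a2 (2.06 with SE 0.91, adjusted p = 0.0310) and Col3a1 (1.93 with SE 1.10, adjusted p = 0.0401), both fibrillar collagens made by stellate cells. Col1a2 had 0, 7 and 9 counts in EV and was tested only through its Sox4 counts. Col3a1 had 1, 19 and 20 counts in EV and 35, 93 and 98 in Sox4, and was tested with the help of its Sox4 counts. Vcan, versican, had 0, 2 and 0 counts in EV and 2, 9 and 24 in Sox4, and Acan, Bcan, Fbn2 and Comp had none in any library. Fn1, fibronectin, was at 2381 ± 168.6 and 2553 ± 101.3 CPM (0.10, adjusted p = 0.568).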
